A study of Homo sapiens with 6 samples.

Results

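The genes that write, read and erase N6-methyladenosine (m6A) were followed in RNA sequencing of HEK293, an established cell line derived from human embryonic kidney. The 10 members were chosen by gene symbol: the writers METTL3, METTL14 and WTAP, the readers YTHDF1, YTHDF2, YTHDF3, YTHDC1 and YTHDC2, and the erasers FTO and ALKBH5, out of 57773 genes in the deposited table. Earlier results of these data were known when they were chosen. Total RNA was sequenced in 3 libraries labelled as a knockdown of TRDMT1 and 3 libraries labelled as control, and the labels name no other alteration of the cells in either group. Per the protocols, the RNA was depleted of ribosomal RNA and treated with an RNA methylation (bisulfite) kit. Whether bisulfite-treated RNA underlies the counts is not given. How TRDMT1 was depleted is not stated in the labels. Nor do they say that the replicates were grown separately, so a p-value reflects only library-to-library spread, possibly technical. TRDMT1, also called DNMT2, places a different mark, 5-methylcytosine, in certain tRNAs.

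m6A is the most abundant internal modification of mRNA. METTL3 carries the catalytic site of the writer complex, METTL14 is its partner that holds the RNA substrate, and WTAP anchors the pair in nuclear speckles. YTH-domain proteins bind the mark and pass the transcript on to translation, decay, splicing or export, while FTO and ALKBH5 are dioxygenases that remove it. The values below are transcript levels of this machinery, not m6A itself.

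The libraries labelled knockdown held 36455950 to 40088993 counts and the libraries labelled control 24776040 to 26802182. For TRDMT1 itself, the libraries labelled knockdown gave 221, 225 and 245 counts, against 99, 93 and 80 in the libraries labelled control. This was 1.53-fold higher under the knockdown label (log2 fold change 0.61 ± 0.21 SE, adjusted p = 0.0705, edgeR), with an exact two-sided permutation p of 0.1 on log2(RPKM + 1), the smallest that 3 against 3 libraries allow. Leaving out control replicate 2 gave 0.79 (adjusted p = 0.00249; all settings 0.000276 to 0.202). The targeted gene thus goes against its label. In the table, samples titled TKD and labelled knockdown have columns named 293C, and samples labelled control have columns named 293TK, abbreviations that the labels do not explain. Every direction below is between libraries as labelled. Control replicate 2 stood apart: across genes it correlated at 0.963 and 0.951 with the other controls, which correlated at 0.989 with each other. Of the markers fixed for this line, KRT8, KRT18, VIM, NEFL and NEFM were at 10.6 to 456 RPKM in every library and PAX2 and LHX1 at 0.91 to 5.80 RPKM. Leukocyte (PTPRC, CD3E), erythroid (HBB) and hepatocyte (ALB) markers reached at most 0.20 RPKM, while of the fibroblast markers DCN stayed at or below 0.04 RPKM and COL1A1 lay at 0.55 to 4.80 RPKM.

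Of the 10 members, 9 passed the filter on low counts and were tested. All 3 core writers fell in the libraries labelled knockdown, and none of the 4 tested readers and neither eraser passed the threshold of 0.05 on the adjusted p. Over all 17805 genes tested, 24.0% passed, 14.7% lower and 9.29% higher, against 3 of 9 tested members lower and 0 higher. The median log2 fold change was −0.16 over the 9 tested members and −0.04 over all genes tested. Members were tested with edgeR's quasi-likelihood test on counts, with p-values adjusted over all genes by Benjamini-Hochberg. Differences are given on CPM, the count of a gene scaled to its library's size by TMM normalization, as mean ± SD over n = 3 libraries a group. In bulk RNA, fewer cells of a kind and less RNA per cell cannot be told apart.

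**Figure D1:**
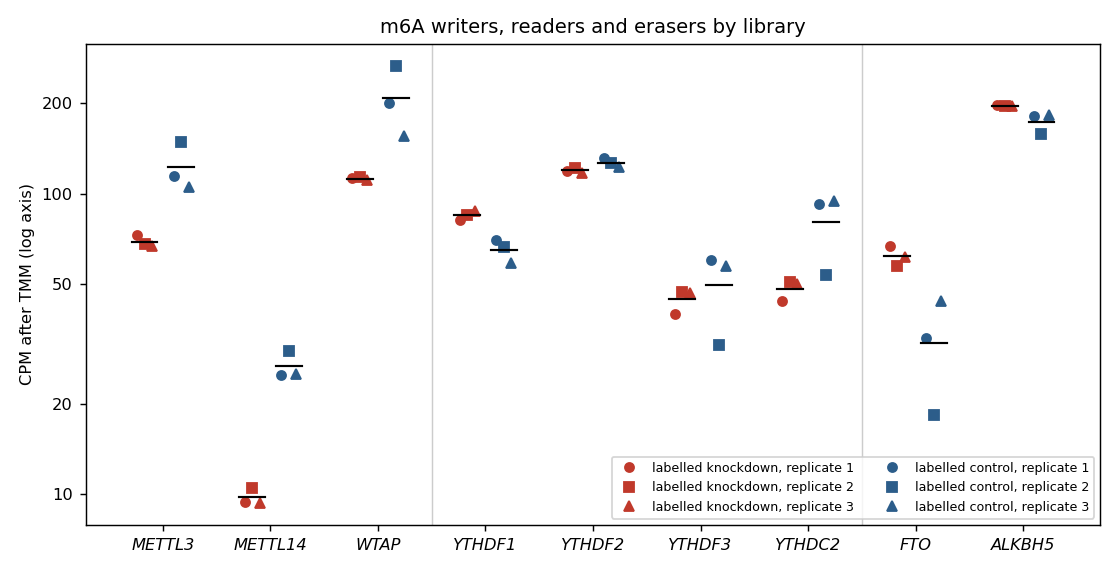
CPM after TMM normalization (log axis) of the 9 tested m6A regulators, with 1 point per library, libraries labelled knockdown in red to the left and libraries labelled control in blue to the right of each gene, and black bars at the group means (n = 3 each). METTL3, METTL14 and WTAP lie lower in all 3 libraries labelled knockdown, and control replicate 2 (blue squares) is the lowest control library for YTHDF3, YTHDC2, FTO and ALKBH5.

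METTL14 changed most among the members. It stood at 9.46, 10.5 and 9.36 CPM in the libraries labelled knockdown, against 25.0, 29.9 and 25.0 CPM in the libraries labelled control. Every library labelled knockdown lay under every library labelled control, and the gap between the groups was wider than the range within either. METTL14 was 2.72-fold lower (9.78 ± 0.65 against 26.6 ± 2.83 CPM, −1.44 ± 0.14 in log2 units, adjusted p = 0.00109, edgeR). It was called lower in all 15 alternative settings, at −1.50 to −0.80.

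METTL3, the catalytic subunit, had 72.8, 67.8 and 66.8 CPM in the libraries labelled knockdown, against 115, 149 and 106 CPM in the libraries labelled control. These groups did not overlap, and the controls spread more widely, with replicate 2 the highest. METTL3 was 1.78-fold lower (69.1 ± 3.19 against 123 ± 22.6 CPM, −0.83 ± 0.15, adjusted p = 0.0110, edgeR). Without any one of the 3 libraries labelled knockdown the call ended (adjusted p = 0.0587 without replicate 1, 0.0655 without replicate 2 and 0.0703 without replicate 3) while the fold change stayed between −0.86 and −0.80. Over all 15 settings its adjusted p ran from 4.71e-05 to 0.0703. METTL3 lies on chromosome 14, whose 468 tested protein-coding genes had a median log2 fold change of −0.50. What part of the METTL3 difference is shared with its chromosome was not tested.

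WTAP, the regulatory subunit, was nearly constant at 112, 114 and 111 CPM in the libraries labelled knockdown, against 200, 266 and 156 CPM in the libraries labelled control. Again all 3 libraries labelled knockdown lay under all 3 controls. WTAP was 1.85-fold lower (112 ± 1.41 against 207 ± 55.5 CPM, −0.89 ± 0.20, adjusted p = 0.0205, edgeR). The call ended without any one library labelled knockdown (adjusted p = 0.0930, 0.0893 and 0.0959 without replicates 1, 2 and 3) and without control replicate 1 (0.0654), over a range of 0.000233 to 0.0959. Its fold change without control replicate 2, the highest control, was −0.66, still called. The median log2 fold change on its chromosome 6 was −0.14, and on chromosome 4, which holds METTL14, −0.16.

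The annotated promoters of these 3 writers are shown because their transcripts fell together. Each is the RefSeq window of 250 bases before to 50 after a transcription start on GRCh38.p14, a later build than the hg19 of the count table, at chr14:21511291-21511590 (minus strand) for METTL3, chr4:118685142-118685441 (plus strand) for METTL14, and chr6:159726867-159727166 (plus strand) for the first of 2 listed WTAP starts. Capitals mark matches, on either strand, to the ETS core CCGGAA, the CCAAT box CCAAT, the GC box GGGCGG and the TATA box TATAAA. The E-box CACGTG and the NRF1 motif were also searched and had no match in these windows.
METTL3: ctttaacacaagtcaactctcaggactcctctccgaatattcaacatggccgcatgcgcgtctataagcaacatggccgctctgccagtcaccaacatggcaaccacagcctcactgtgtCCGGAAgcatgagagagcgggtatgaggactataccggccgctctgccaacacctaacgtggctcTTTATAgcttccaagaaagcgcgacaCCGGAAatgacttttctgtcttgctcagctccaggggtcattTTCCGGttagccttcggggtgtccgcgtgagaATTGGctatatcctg
METTL14: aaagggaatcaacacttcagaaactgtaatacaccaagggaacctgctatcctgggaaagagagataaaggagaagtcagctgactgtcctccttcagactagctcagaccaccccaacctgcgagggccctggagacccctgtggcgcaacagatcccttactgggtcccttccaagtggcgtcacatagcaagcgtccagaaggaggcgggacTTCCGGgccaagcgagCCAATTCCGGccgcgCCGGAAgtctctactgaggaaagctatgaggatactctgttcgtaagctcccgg
WTAP: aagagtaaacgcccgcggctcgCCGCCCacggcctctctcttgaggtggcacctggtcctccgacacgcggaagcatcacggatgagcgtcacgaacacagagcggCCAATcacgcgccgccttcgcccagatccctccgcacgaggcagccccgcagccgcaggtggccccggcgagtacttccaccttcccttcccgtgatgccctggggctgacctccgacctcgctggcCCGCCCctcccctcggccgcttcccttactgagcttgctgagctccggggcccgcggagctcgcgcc
The METTL3 and METTL14 windows each held 3 ETS core matches and 1 CCAAT box and no GC box, and METTL3 also held 1 TATA box match. One ETS match of METTL14 overlaps its CCAAT box. WTAP held 2 GC boxes and 1 CCAAT box and no ETS match. Among all 35116 promoter windows of the same length, 17.2% held at least 1 ETS match, 34.6% a CCAAT box, 45.0% a GC box, 11.5% the TATA letters, 7.26% the E-box and 1.24% the NRF1 motif. Windows were found for 9 of the 10 members, and apart from METTL3 and METTL14 no member window examined (that of YTHDF3 was not) held an ETS match. These are matches of letters, not binding sites.

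Among the readers, YTHDF1, which is known for promoting translation of m6A-bearing mRNA, had 81.9, 84.8 and 87.6 CPM in the libraries labelled knockdown, against 70.0, 66.5 and 58.9 CPM in the libraries labelled control. These groups did not overlap, with a difference of 0.38 ± 0.12 that missed the threshold (adjusted p = 0.0531, edgeR). It passed with other scalings (adjusted p = 0.0348 with library totals only and 0.0497 with DESeq2's size factors) and without control replicate 2 (0.00644). Over all settings its adjusted p ran from 0.00644 to 0.221. Chromosome 20, where YTHDF1 lies, had a median log2 fold change of 0.28.

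YTHDF2, the reader that recruits the CCR4-NOT deadenylase and speeds mRNA decay, differed least. It stood at 119, 122 and 117 CPM in the libraries labelled knockdown, against 131, 126 and 122 CPM in the libraries labelled control, so the highest library labelled knockdown lay just under the lowest control. The log2 fold change was −0.08 ± 0.10 (adjusted p = 0.580, edgeR), and its sign turned on scaling: it was 0.09 with library totals only.

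YTHDF3, the third paralogue, had 39.8, 47.1 and 46.6 CPM in the libraries labelled knockdown, against 60.2, 31.5 and 57.3 CPM in the libraries labelled control. Control replicate 2 lay under all libraries labelled knockdown and the other controls above them. The log2 fold change was −0.16 ± 0.25 (adjusted p = 0.663, edgeR), and −0.40 when control replicate 2 was left out (adjusted p = 0.00797; all settings 0.00797 to 0.963). Its direction was not stable, at 0.19 with trends of base composition and length removed and 0.03 without control replicate 1.

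YTHDC2, a helicase with a YTH domain known from meiosis, showed the same split among the controls. It had 44.1, 51.0 and 50.1 CPM in the libraries labelled knockdown, against 92.4, 53.7 and 94.8 CPM in the libraries labelled control. Control replicate 2 lay close to the libraries labelled knockdown and far below the other controls. The log2 fold change was −0.73 ± 0.23 (adjusted p = 0.0551, edgeR), and −0.95 when control replicate 2 was left out (adjusted p = 3.03e-05; all settings 3.03e-05 to 0.794). With trends of base composition and length removed it was −0.05 ± 0.12 (adjusted p = 0.794), and −0.18 with control replicate 2 left out as well (adjusted p = 0.0262).

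YTHDC1, the nuclear reader tied to splicing and export, was listed at 12, 6 and 4 counts in the libraries labelled knockdown, against 5, 1 and 3 counts in the libraries labelled control. It did not pass the filter and no difference is given for it. CNOT3 and RBM15B, of complexes that work with m6A, were listed at 0 counts in all 6 libraries, and FMR1 at 0 to 6. Entries this low, YTHDC1 included, say only what the table lists, and whether the counting kept the reads of these genes was not tested.

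The erasers differed from each other in spread. FTO stood at 66.8, 57.3 and 61.8 CPM in the libraries labelled knockdown, against 33.1, 18.4 and 43.9 CPM in the libraries labelled control. All libraries labelled knockdown lay above all controls, with control replicate 2 again the lowest. FTO was at 62.0 ± 4.74 against 31.8 ± 12.8 CPM, with a log2 fold change of 0.96 ± 0.29 that missed the threshold (adjusted p = 0.0541, edgeR). It passed without control replicate 2 (0.69, adjusted p = 0.00142), without control replicate 3 (1.26, adjusted p = 0.0211), with a replicate block (1.04, adjusted p = 0.0316) and with trends of base composition and length removed (0.73 ± 0.17, adjusted p = 0.0261), over a range of 0.000150 to 0.161. FTO lies on chromosome 16, whose 654 tested protein-coding genes had a median of 0.53. What part of the FTO difference is shared with its chromosome was not tested.

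ALKBH5 was the steadiest member among the libraries labelled knockdown, at 197, 196 and 196 CPM in the libraries labelled knockdown, against 181, 157 and 183 CPM in the libraries labelled control. These groups did not overlap, but the difference of 0.18 ± 0.12 was not called (adjusted p = 0.290, edgeR). With composition and length trends removed it was −0.01 ± 0.11.

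Groups that do not overlap were common in this table. On CPM, 8 of the 9 tested members had no overlap between groups, 3 higher and 5 lower, and so had 49.9% of all genes tested (23.9% higher and 26.0% lower). The libraries labelled knockdown agreed closely with each other: the coefficient of variation of a tested member ran from 0.169% (ALKBH5) to 9.15% (YTHDF3), while among the controls it ran from 3.56% (YTHDF2) to 40.3% (FTO). Control replicate 2 was above both other controls for the 3 writers, below both for 4 members (YTHDF3, YTHDC2, FTO and ALKBH5) and between them for 2. Without it, 7 of the 9 tested members passed the threshold, 5 lower and 2 higher, where 48.5% of all genes did (25.6% lower and 22.9% higher). With only control replicate 1 or 3 left out, 2 and 4 members passed, beside 11.0% and 29.2% of all genes. Leaving out knockdown replicate 1, 2 or 3 left 1 member each time, METTL14, beside 6.99%, 7.37% and 6.67% of all genes. DESeq2 called 6 members, 4 lower and 2 higher, against 26.9% of the genes to which it gave an adjusted p (15.2% lower and 11.6% higher).

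The members differ in base composition, from 45.1% A and T in the longest transcript of ALKBH5 to 66.6% in that of YTHDC2. After smooth trends of base composition and transcript length were removed, the writers were still lower: METTL14 at −1.06 ± 0.20 (adjusted p = 0.0143, edgeR), WTAP at −0.92 ± 0.19 (adjusted p = 0.0173) and METTL3 at −0.64 ± 0.10 (adjusted p = 0.00747). YTHDF1 then stood at 0.19 ± 0.10, not called. In that fit 4 of the 9 tested members passed, the 3 writers lower and FTO higher, against 21.5% of all genes (13.3% lower and 8.17% higher). The writers were also called lower with DESeq2's size factors, with library totals only and with limma-trend on log2(RPKM + 1), settings in which 23.9%, 19.9% and 21.5% of all genes passed and 4 members each. Also 4 members passed with no filter, with a filter of at least 1 CPM in 3 libraries and with a replicate block, beside 11.7%, 26.9% and 16.7% of all genes. With trends removed and control replicate 2 left out, 6 members passed, beside 48.5% of all genes. Across all genes those scalings moved the balance: 1654 were higher and 2613 lower as fitted, 1888 and 1649 with library totals only (all-gene median 0.13), and 2299 and 1527 with limma-trend on RPKM.

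**Figure D2:**
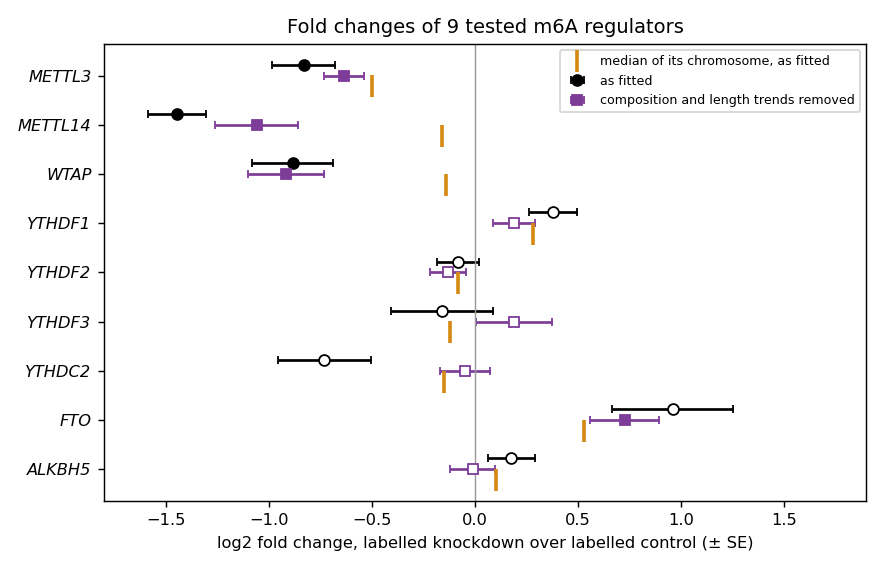
Log2 fold change of the libraries labelled knockdown over the libraries labelled control for the 9 tested members, with SE bars, as fitted (black circles) and with base composition and length trends removed (purple squares). Filled symbols have an adjusted p under 0.05, and orange ticks give the median log2 fold change of tested protein-coding genes on the member's chromosome. The 3 writers are filled and negative in both fits, FTO is filled only with trends removed, and YTHDC2 moves from −0.73 to −0.05.

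Levels of different genes were compared per length, on the authors' RPKM. In the libraries labelled knockdown the order was ALKBH5 (65.4 ± 0.18 RPKM), YTHDF2 (32.9 ± 0.58), YTHDF1 (26.1 ± 0.96), WTAP (20.6 ± 0.22), METTL3 (13.0 ± 0.56), YTHDF3 (7.67 ± 0.72), FTO (5.18 ± 0.39), YTHDC2 (4.76 ± 0.38) and METTL14 (1.52 ± 0.10), SD over n = 3. FTO and YTHDC2 were the only neighbours in that order whose libraries overlapped. In the libraries labelled control the order was ALKBH5 (51.8 ± 10.2 RPKM), WTAP (33.1 ± 4.96), YTHDF2 (31.0 ± 3.94), METTL3 (20.2 ± 1.08), YTHDF1 (17.8 ± 2.28), YTHDF3 (7.80 ± 3.17), YTHDC2 (7.18 ± 2.74), METTL14 (3.65 ± 0.11) and FTO (2.43 ± 1.19). There the neighbours WTAP and YTHDF2, METTL3 and YTHDF1, and YTHDF3 and YTHDC2 overlapped. ALKBH5 led in both groups. YTHDC1, listed at 0.01 to 0.05 RPKM on 1 to 12 counts, is not ranked. METTL14 and FTO changed places, with FTO above METTL14 in all 3 libraries labelled knockdown and below it in all 3 labelled control.

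Ratios of members within a library do not depend on scaling between libraries. Trends of base composition and length were not removed from them. The METTL3 to METTL14 ratio of RPKM was 9.30, 7.78 and 8.63 in the libraries labelled knockdown, against 5.56, 6.002 and 5.09 in the libraries labelled control. The groups did not overlap, and the ratio was 1.54-fold higher under the knockdown label. METTL3 to WTAP was 0.66, 0.61 and 0.62 in the libraries labelled knockdown, against 0.59, 0.57 and 0.69 in those labelled control. These overlapped, with a log2 difference of 0.03 (exact two-sided permutation p = 0.7), which turned to −0.02 without control replicate 2.

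YTHDF1 to YTHDF2, a ratio of paralogous readers, was 0.77, 0.78 and 0.83 in the libraries labelled knockdown, against 0.59, 0.59 and 0.54 in the libraries labelled control, 1.38-fold higher with no overlap. FTO to ALKBH5 was 0.085, 0.073 and 0.079 in the libraries labelled knockdown, against 0.046, 0.029 and 0.060 in the libraries labelled control, 1.83-fold higher with no overlap. For these ratios and METTL3 to METTL14 the exact two-sided permutation p was 0.1, the smallest possible with 3 against 3, and 0.167 after Benjamini-Hochberg adjustment over the 5 ratios computed, so none can pass the threshold. The fifth ratio, YTHDC1 to YTHDC2, rests on 1 to 12 counts of YTHDC1 and overlapped between groups (exact p = 0.2).

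**Figure D3:**
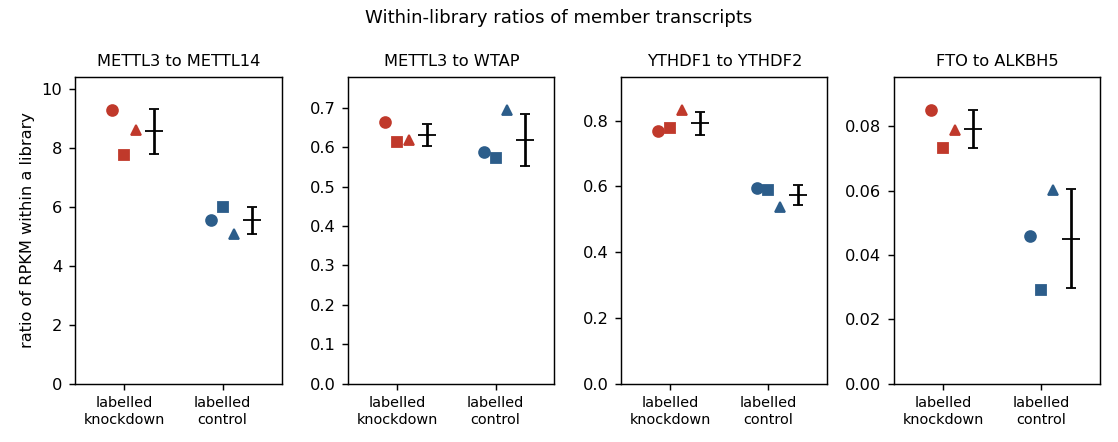
Ratio of RPKM of 2 members within each library (each y axis starts at 0), with 1 point per library, libraries labelled knockdown in red on the left and libraries labelled control in blue on the right, and black marks for the mean ± SD (n = 3 each). METTL3 to METTL14, YTHDF1 to YTHDF2 and FTO to ALKBH5 do not overlap between groups, and METTL3 to WTAP does.

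By library-to-library pattern, METTL3 and WTAP were the closest pair of members. The measure was the root mean square difference of log2 CPM over the 6 libraries after centring each gene on its own mean, which is mostly set by the difference between the groups. METTL3 and WTAP differed by 0.096, with 68 of 7690 other genes closer to METTL3, the closest being SLU7 (0.040). The closest gene to WTAP was CALM2 (0.032), to METTL14 FANCL (0.057), to YTHDF1 BSG (0.033), to YTHDF2 ANKRA2 (0.024), to YTHDF3 FAR2 (0.045), to YTHDC2 SLC25A46 (0.049), to FTO STK35 (0.030) and to ALKBH5 CCDC8 (0.010).

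The wider m6A pathway was read from 6 lists with 55 genes, of which 51 were tested. The lists were chosen with earlier results of these data known, so the shares below describe them and are not a test. Of these 21 passed the threshold (41.2%, against 24.0% of all genes), 18 lower and 3 higher, with a median of −0.20 against −0.04 over all genes. With composition and length trends removed 10 passed, 7 lower and 3 higher (19.6%, against 21.5% of all genes), so the share was no longer above that of all genes, with a median of −0.08 against −0.07 over all genes. Without any one library labelled knockdown 2 passed (3.92%, against 6.67% to 7.37% of all genes). Without control replicate 1 there were 6 (11.8%, against 11.0%) and without control replicate 2 there were 31 (60.8%, against 48.5%).

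Among the partners of the writer complex, ZC3H13, the zinc finger protein that holds the complex in the nucleus, had the largest difference. It stood at 20.7, 22.8 and 21.1 CPM in the libraries labelled knockdown, against 93.7, 75.9 and 113 CPM in the libraries labelled control, with a wide gap between groups. ZC3H13 was 4.37-fold lower (−2.13 ± 0.17, adjusted p = 0.000605, edgeR) and still lower with trends removed (−1.53 ± 0.09, adjusted p = 0.000464). RBM15, an RNA-binding adaptor of the complex, was higher, at 39.7 ± 1.49 against 28.2 ± 0.88 CPM (0.49 ± 0.11, adjusted p = 0.0211), and 0.27 ± 0.09 with trends removed, no longer called. VIRMA, listed as KIAA1429, stood at 63.4 ± 4.11 against 73.0 ± 6.72 CPM and the ubiquitin ligase CBLL1 at 40.6 ± 2.60 against 28.5 ± 10.4 CPM, neither called. Of the 4 tested partners 1 was lower, 1 higher and 2 not called, where 3 of 3 core writers were lower. Over all genes tested 24.0% were called, 14.7% lower and 9.29% higher. With trends removed 1 of the 4 partners was called (25.0%, against 21.5% of all genes), and the 3 core writers were still lower.

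Of 6 genes listed as other RNA adenine methyltransferases, counting the partner TRMT112, 2 were lower as fitted (33.3% called, against 24.0% of all genes). They were METTL5, which modifies 18S ribosomal RNA (−0.68 ± 0.12, adjusted p = 0.00979, edgeR), and METTL4 (−0.62 ± 0.12, adjusted p = 0.0114). Neither was called with trends removed, where they stood at 0.22 ± 0.14 and 0.02 ± 0.14. No gene of this list was called in that fit, against 21.5% of all genes. The METTL5 partner TRMT112, the U6 methyltransferase METTL16, ZCCHC4 and the cap methyltransferase PCIF1 were not called. Of 4 genes that supply and recycle the methyl donor S-adenosylmethionine (MAT1A, MAT2A, MAT2B and AHCY), none was called as fitted, against 24.0% of all genes. With trends removed MAT2B was called higher (0.62 ± 0.12), 1 of 4 (25.0%, against 21.5%). Of 7 other AlkB dioxygenases, relatives of FTO and ALKBH5, 1 was lower and none higher (14.3% called, against 24.0% of all genes). This was ALKBH1 (13.7 ± 0.65 against 19.5 ± 2.01 CPM, −0.51 ± 0.14, adjusted p = 0.0355), on chromosome 14 with METTL3, where the median was −0.50. With trends removed ALKBH1 stood at −0.48 ± 0.15, and none of the 7 was called, against 21.5% of all genes.

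Of 12 tested m6A-binding proteins outside the YTH family, 5 were lower and 0 higher (41.7%, against 24.0% of all genes). With trends removed 3 were lower (25.0%, against 21.5%). FXR1, a relative of the fragile X protein, was 2.36-fold lower (92.2 ± 1.86 against 218 ± 65.9 CPM, −1.24 ± 0.21, adjusted p = 0.00855, edgeR). HNRNPA2B1, a nuclear splicing regulator, stood at 1081 ± 26.5 against 1990 ± 251 CPM (−0.88 ± 0.18), LRPPRC, which binds mitochondrial mRNA, at 157 ± 6.81 against 257 ± 23.4 CPM (−0.72 ± 0.12), HNRNPC at 894 ± 26.1 against 1423 ± 285 CPM (−0.67 ± 0.20) and the initiation factor subunit EIF3A at 366 ± 6.92 against 513 ± 16.7 CPM (−0.48 ± 0.13). With trends removed HNRNPA2B1 (−0.62 ± 0.13) and LRPPRC (−0.75 ± 0.16) were still called, and IGF2BP2, which stabilizes mRNA, was called as well (−0.45 ± 0.09). FXR1 (−0.89 ± 0.33), HNRNPC (−0.53 ± 0.18) and EIF3A (−0.17 ± 0.14) were no longer called in that fit. HNRNPC had passed narrowly as fitted (adjusted p = 0.0490, edgeR). It lies on chromosome 14 with METTL3, where the median was −0.50, and what part of its difference is shared was not tested. HNRNPC and HNRNPA2B1 have processed pseudogenes with which they may share reads, so their values are uncertain.

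Partners of the YTH readers, the longest list, had 9 lower and 2 higher of 18 tested (61.1%, against 24.0% of all genes). With trends removed 3 were lower and 2 higher (27.8%, against 21.5%). XRN1, the exonuclease that degrades decapped mRNA, stood at 12.6, 13.4 and 12.7 CPM in the libraries labelled knockdown, against 33.0, 32.1 and 44.1 CPM in the libraries labelled control. It was 2.82-fold lower (−1.50 ± 0.16, adjusted p = 0.00171, edgeR), and −1.10 ± 0.13 with trends removed, still called. XRN1 and ZC3H13 were the context genes called in all 15 settings. CNOT1, the scaffold of the CCR4-NOT deadenylase that YTHDF2 binds, was higher, at 499, 433 and 444 CPM in the libraries labelled knockdown, against 230, 226 and 329 CPM in the libraries labelled control. CNOT1 was 1.75-fold higher (0.81 ± 0.19, adjusted p = 0.0220), and 0.58 ± 0.12 with trends removed, still called. It lies on chromosome 16 with FTO, where the median was 0.53. What part of the CNOT1 difference is shared with its chromosome was not tested. Its fellow subunits CNOT2 (−0.74 ± 0.16), CNOT10 (−0.58 ± 0.12) and CNOT7, a catalytic deadenylase (−0.42 ± 0.11), were lower, of which only CNOT10 was still called with trends removed (−0.38 ± 0.09). The deadenylase CNOT6L was called higher in that fit (0.78 ± 0.15).

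Among partners of the nuclear reader, the export receptor NXF1 was higher (0.51 ± 0.11, adjusted p = 0.0160, edgeR). NXF1 lies on chromosome 11, where the median log2 fold change was 0.31. The splicing factors SRSF3 (−0.64 ± 0.15) and SRSF10 (−0.48 ± 0.14) were lower, and so was CPSF6 (−0.57 ± 0.11). MEIOC, listed as C17orf104 and known as the meiotic partner of YTHDC2, stood at 6.77 ± 0.36 against 21.4 ± 9.41 CPM (−1.66 ± 0.35, adjusted p = 0.0167). RIDA, listed as HRSP12, which links YTHDF2 to RNase P, stood at 7.29 ± 0.92 against 12.8 ± 3.03 CPM (−0.82 ± 0.21, adjusted p = 0.0339). With trends removed CPSF6 was still called (−0.38 ± 0.11), and NXF1, SRSF3, SRSF10, MEIOC and RIDA were not.

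**Figure D4:**
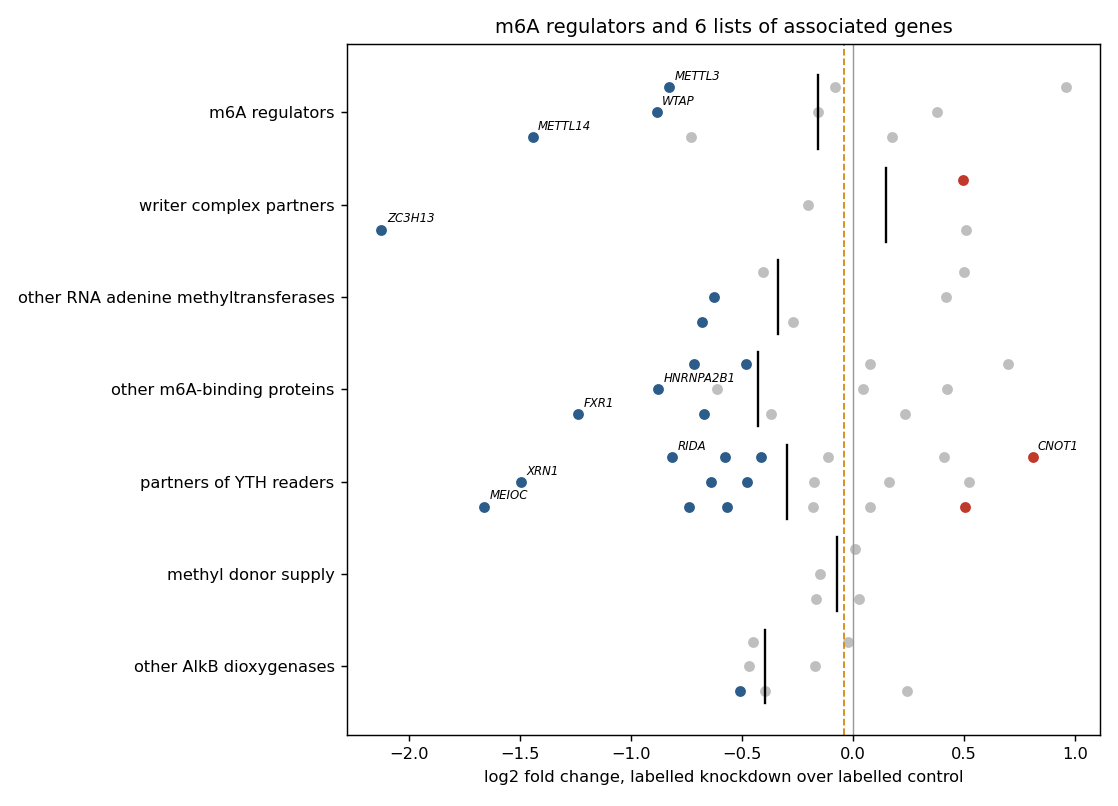
Log2 fold change of the libraries labelled knockdown over the libraries labelled control for each tested gene of the m6A regulators and 6 lists of associated genes, with genes called lower in blue, called higher in red and not called in grey. Black bars are list medians and the dashed line the median of all genes tested (−0.04). ZC3H13 is furthest to the left at −2.13. The partners of YTH readers, the longest list, hold 11 of the 21 calls among the 6 lists. These are 61.1% of 18 tested, against 24.0% of all genes. With trends removed 5 are called (27.8%, against 21.5%).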

How the data were processed

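The authors deposited raw read counts per gene and RPKM values for the 6 libraries. Per the labels' protocols, Trizol-extracted RNA was depleted of ribosomal RNA, treated with an RNA methylation (bisulfite) kit and made into stranded total RNA libraries. The aligner, the annotation, the strand setting and whether bisulfite-treated RNA underlies the table are all not given in the sources used here. Per the submitters' processing notes, hg19 was the build, and the tools named, with no role stated, include edgeR 3.4.6, HTSeq 0.6.1 and DESeq2 1.6.3. The deposited RPKM equalled the deposited counts scaled by exonic length and library total, within 0.006, for 100% of values.

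Counts were fitted with edgeR 4.0.16 in R 4.3.3 (TMM, filterByExpr, robust quasi-likelihood F test), all genes together, with both groups sharing 1 estimate of spread. Each column was tied to its sample through the second name in the sample's description. No 2 libraries of a group matched within sampling noise, and all count in n. SE were computed from the fit as the absolute log2 fold change over the square root of the F statistic. How the difference in depth between the groups affects precision was not tested. Chromosome, base composition and length of the longest transcript were taken from GENCODE 29, which held 97.2% of the tested genes by identifier. Trends were smooth terms per library (mgcv 1.9.3) on deviations of log2 CPM (prior count 2), used as offsets. Alternatives used DESeq2 1.42.0, limma 3.58.1 and the settings in the closing section. The nearest gene to a member was sought among tested genes averaging 5 RPKM or more. Permutation tests used scipy 1.17.1.

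The named genes are TRDMT1, the 10 members, every gene of the 6 lists past the threshold and the nearest gene to each member. VIRMA, CBLL1 and other list genes are named to complete their lists. The members and lists were chosen with earlier results of these data known.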

Additional observations from a re-analysis of the deposited data

How the results depend on the processing

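As fitted, 4267 genes, 3 members and 21 genes of the 6 lists passed the threshold. Leaving out 1 library gave 1191 to 9063 genes, 1 to 7 members and 2 to 31 list genes. Fewer samples change the count by construction, but the direction differed: the lowest counts came without a library labelled knockdown and the highest without control replicate 2, and the cause was not tested. With trends removed and without control replicate 2, chosen after the data were seen, 9073 genes and 6 members passed. DESeq2 called 6 members. List genes fell to 10 with library totals only, with limma-trend, with trends removed and with the replicate block (19.6%, beside 19.9%, 21.5%, 21.5% and 16.7% of all genes).

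The labels do not say whether replicate numbers pair the libraries. Deviations from the group mean correlated at −0.04, 0.057 and 0.001 between same-numbered libraries, and at −0.09 to 0.082 between the others. With 3 libraries a group these values cannot decide it. The replicate block gave 2976 genes and 4 members, with FTO added at 1.04.

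YTHDF1 passed with DESeq2's size factors (0.40), library totals only (0.55), at least 1 CPM in 3 libraries (0.38), DESeq2 (0.41) and limma-trend (0.54). FTO passed with no filter (1.03), DESeq2 (0.99), trends removed (0.73) and trends removed without control replicate 2 (0.55). YTHDC2 passed with DESeq2 (−0.70) and with trends removed without control replicate 2 (−0.18), where YTHDF2 passed too (−0.18). TRDMT1 passed with library totals only (0.80), DESeq2 (0.65), limma-trend (0.25) and trends removed without control replicate 2 (1.22).

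Signs turned, none of them called, for YTHDF2 with library totals only (0.0873) and limma-trend (0.0924), for YTHDF3 with limma-trend (0.0530), trends removed (0.19), the same without control replicate 2 (0.0281) and, with trends kept, leaving out control replicate 1 (0.0314), and for ALKBH5 with trends removed (−0.0115) and the same without control replicate 2 (−0.10). METTL5 turned with trends removed (0.22) and the same without control replicate 2 (0.0595), METTL4 likewise (0.0195 and 0.13), CNOT7 likewise (0.00751 and 0.18), and in that last setting VIRMA (0.16) and CNOT2 (0.26, called there).

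Leaving out 1 library moved METTL3 from −0.93 to −0.67, METTL14 from −1.50 to −1.35, WTAP from −1.06 to −0.66, YTHDF1 from 0.31 to 0.47, YTHDF2 from −0.11 to −0.02, YTHDF3 from −0.40 to 0.03, YTHDC2 from −0.95 to −0.59, FTO from 0.69 to 1.26, ALKBH5 from 0.11 to 0.24 and TRDMT1 from 0.45 to 0.79. Log2 differences of ratios ran from 0.57 to 0.69 for METTL3 to METTL14, −0.02 to 0.12 for METTL3 to WTAP (below 0 without control replicate 2, −0.0183, and without knockdown replicate 1, −0.00139), 0.42 to 0.49 for YTHDF1 to YTHDF2, 0.59 to 1.11 for FTO to ALKBH5 and 0.87 to 1.83 for YTHDC1 to YTHDC2. With 1 added to each RPKM, METTL3 to METTL14 stood at 0.28 and YTHDC1 to YTHDC2 at 0.45.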
